A study of Mus musculus with 27 samples.

Results

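The Zic genes encode zinc finger transcription factors that are relatives of the Gli proteins, the nuclear effectors of hedgehog signalling. They are named after the cerebellum, and in the embryo they are best known from the dorsal neural tube, the neural crest and the midline of the forebrain. Zic1 and Zic4 lie side by side on one chromosome, as do Zic2 and Zic5 on another, and each pair is read in opposite directions. In the eye, Zic2 is known as the factor that sends the axons of a group of retinal ganglion cells (RGCs) to the same side of the brain. Here the levels of 4 Zic genes, Zic1, Zic2, Zic4 and Zic5, are described in the mouse optic stalk, out of 55487 genes listed in the count table. They were chosen as members of 1 gene family that the table holds, with their levels in these libraries and groups in view, so their levels and the differences between groups are given as a description and without a test.

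RNA was measured in 27 libraries from embryos at embryonic day (E) 14. Laser capture microdissection took a dorsal, a ventral and an RGC axon piece of the optic stalk, the tube that joins the eye cup to the brain, from 4 control and 5 mutant embryos. The mutants (Smarcc1-DCT-cKO) were Baf155 loxP/loxP;Dct-Cre;Z/EG, in which the Cre of the pigment cell gene Dct removes Smarcc1 (Baf155). Smarcc1 encodes one of the scaffold proteins of SWI/SNF, a remodeller of chromatin. Controls were littermates with no Dct-Cre, and the lines were kept on C57Bl6/J. Dct-Cre acts in the retinal pigment epithelium (RPE) and, in the stalk, first on the dorsal side, while cells of other origin in a captured piece keep Smarcc1. The labels place 1 control and 3 mutant embryos in batch A and the 3 other controls and 2 mutants in batch B.

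Total counts ranged from 10.9 to 34.0 M counts (M, 1000000) per library, so that a count of 0 allows up to 3 counts, or 0.0883 to 0.275 counts per M counts (CPM). These limits cover counting error only, since PCR was used to amplify cDNA that carried no identifiers of single molecules. Smarcc1 itself stood at 75.9 to 289 CPM in dorsal controls and at 2.26 to 107 CPM in dorsal mutants, where mutants 1 and 2, at 94.9 and 107 CPM, reached into the control range. In the ventral pieces Smarcc1 stood at 75.7 to 198 CPM in controls and 14.7 to 64.4 CPM in mutants, and in the axon pieces at 50.1 to 242 and 1.86 to 44.9 CPM. The library of dorsal mutant 1 was the shallowest of the 27, and the main results that rest on it are given without it too. Markers of RGCs and neurons summed to 1323 to 2166 CPM in axon controls, 25.0 to 1075 CPM in dorsal and 127 to 1562 CPM in ventral controls. Nefm, a neurofilament gene of RGC axons, and Sncg averaged 957 and 451 CPM in axon controls against 34.3 and 5.33 CPM in dorsal controls, but of the 10 genes of the list tested between dorsal and axon controls 5 had a log2 fold change above 0 and 5 below. Tubb3, named after its values were seen, averaged 13.5 CPM in axon and 100.1 CPM in dorsal controls. The dorsal and ventral labels were not checked by markers.

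On the mm10 genome and the GENCODE annotation, Zic1 (ENSMUSG00000032368.14) occupies chr9:91358058-91365810 on the minus strand and Zic4 (ENSMUSG00000036972.14) chr9:91362413-91389348 on the plus strand. Zic5 (ENSMUSG00000041703.7) occupies chr14:122456795-122465677 on the minus strand and Zic2 (ENSMUSG00000061524.8) chr14:122475435-122479852 on the plus strand. The start sites of Zic1 and Zic4 are 3397 bases apart and those of Zic2 and Zic5 9758 bases apart. Exons of Zic1 and Zic4 share 60 bases on opposite strands, which is 1.05% of the exonic bases of Zic1, and Zic4 shares 468 exonic bases (4.53%) with Gm37477 on the other strand. The strand setting of the counting is not given in the sources used here, so reads from these stretches cannot be told apart, whereas Zic2 and Zic5 share 0 exonic bases with any other gene.

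The promoters are shown because 3 of the 4 genes were low together in one group, and because the gene removed in the mutants acts on chromatin. The RefSeq table (GRCm38.p6) holds 3 of the 4, each from 250 bases before to 50 bases after the start, given 5′ to 3′ on the strand of the gene with every CG pair in capitals. Zic1 is at chr9:91365719-91366018 on the minus strand, Zic4 at chr9:91368722-91369021 on the plus strand and Zic5 at chr14:122465609-122465908 on the minus strand. The RefSeq start of Zic4 lies inside the gene as GENCODE draws it.
Zic1 promoter: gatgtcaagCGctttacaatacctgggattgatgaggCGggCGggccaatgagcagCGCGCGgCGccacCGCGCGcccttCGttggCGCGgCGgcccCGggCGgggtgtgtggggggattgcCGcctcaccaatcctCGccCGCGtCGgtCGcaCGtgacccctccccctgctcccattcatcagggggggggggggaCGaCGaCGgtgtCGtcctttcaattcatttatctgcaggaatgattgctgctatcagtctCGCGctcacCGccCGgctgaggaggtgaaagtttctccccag
Zic4 promoter: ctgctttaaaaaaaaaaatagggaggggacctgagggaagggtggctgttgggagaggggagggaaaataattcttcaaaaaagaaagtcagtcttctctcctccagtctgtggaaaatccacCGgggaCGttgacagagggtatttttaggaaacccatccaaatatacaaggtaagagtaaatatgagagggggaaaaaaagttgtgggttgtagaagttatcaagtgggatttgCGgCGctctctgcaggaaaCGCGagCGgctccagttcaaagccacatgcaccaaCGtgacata
Zic5 promoter: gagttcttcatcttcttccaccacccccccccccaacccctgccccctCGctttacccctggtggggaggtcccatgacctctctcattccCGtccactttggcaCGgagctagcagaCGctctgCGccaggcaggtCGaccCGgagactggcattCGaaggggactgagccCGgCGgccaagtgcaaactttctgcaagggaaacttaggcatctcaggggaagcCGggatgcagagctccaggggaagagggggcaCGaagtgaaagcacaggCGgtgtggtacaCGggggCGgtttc
The Zic1 stretch held 31 CG pairs at 65.3% G and C, the Zic5 stretch 15 at 62.7% and the Zic4 stretch 8 at 46.0%, beside a median of 7 CG pairs and 52.7% over 32851 mouse promoters of the same length. The Zic1 promoter also held the letters CCAAT, which 37.4% of all promoters hold on either strand, and CACGTG, the E-box, which 7.15% hold. Neither CAGCAGG, a motif of Zic proteins (10.5% of promoters), nor GACCACCCA, the motif of Gli proteins (0.253%), was found in any of the 3 on either strand. Overlaps between motifs were not excluded from the search, and a match is a run of letters only. Chromatin and protein binding were not measured in these libraries, and the part of these sequences in the Zic levels was not tested.

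The 4 genes were expressed in nearly every piece of the stalk, and their levels differed widely from one another. Zic1 had more than 3 counts in 26 of the 27 libraries, Zic4 and Zic5 in 26 and Zic2 in 24, and all 4 passed the filter that kept 16330 genes for testing. Compared per kilobase of exon, the median over libraries was 31.2 CPM per kilobase for Zic1, 6.19 for Zic4, 6.17 for Zic5 and 1.15 for Zic2. Zic1 made up 64.1% of the length-scaled level of the 4 genes in dorsal controls, followed by Zic5 with 24.8%, Zic4 with 9.55% and Zic2 with 1.5%. These shares use every annotated exon of a gene, of which Zic4 has the most (10335 bases), so they would be larger for Zic4 if it used only part of them.

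**Figure D1:**
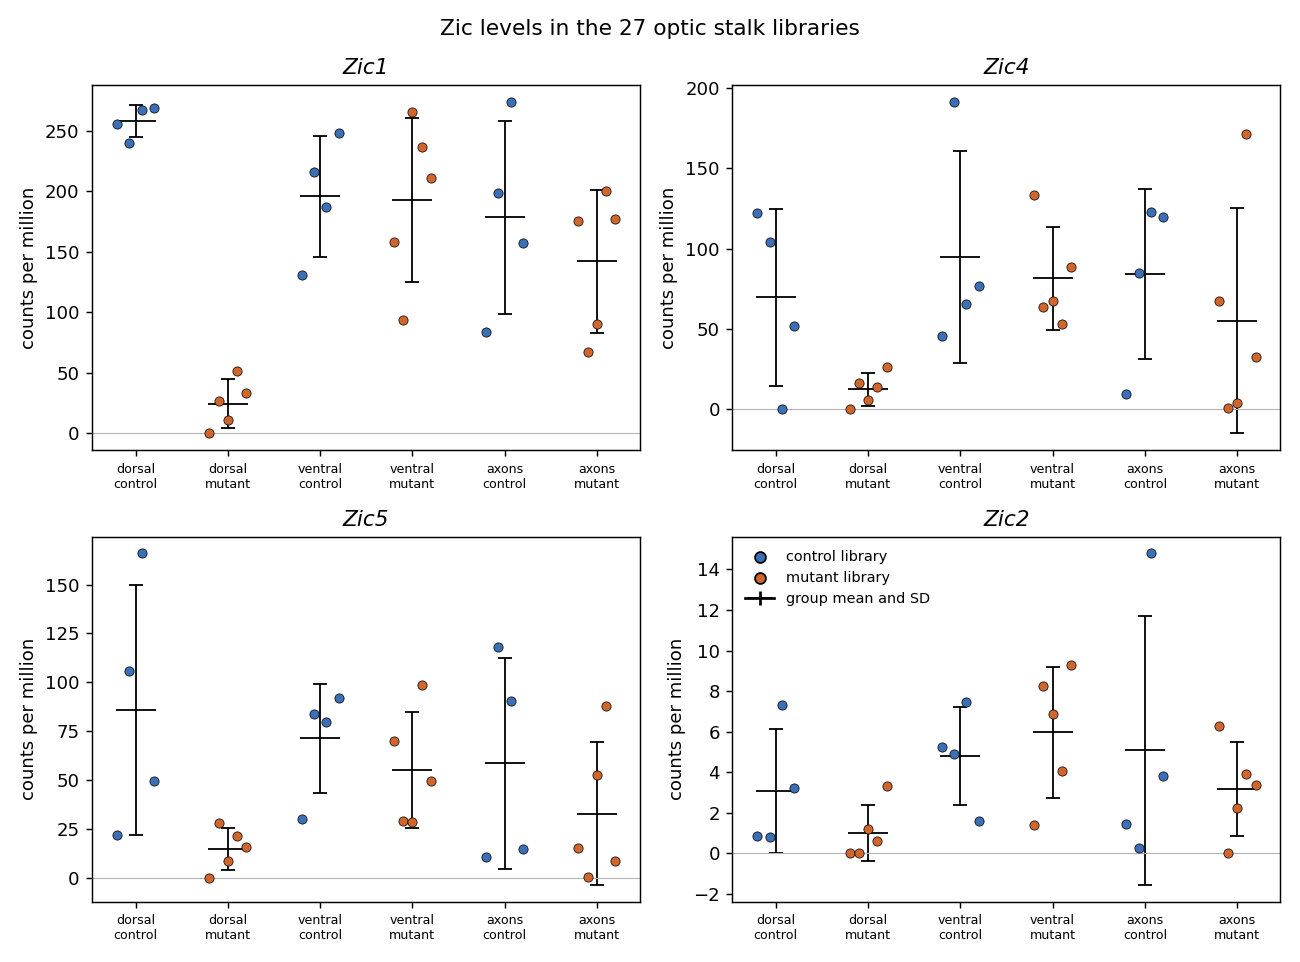
Level of each Zic gene in the 27 libraries, in CPM on linear axes that differ between genes. Each point is 1 library (blue, control; orange, mutant), and the bar and whiskers are the group mean and SD of 4 or 5 libraries. Zic1 lies between 240 and 269 in dorsal controls and at or below 51.9 in dorsal mutants, while the other groups overlap.

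The clearest difference was in the dorsal stalk, where Zic1, known from cerebellar and dorsal neural development, was about 10.5-fold lower in mutants. Dorsal controls held 256, 239.6, 267 and 269 CPM of Zic1, with a mean of 258 ± 13.3 (SD, n = 4). Dorsal mutants 1 to 5 held 0, 26.7, 11.2, 51.9 and 33.4 CPM, with a mean of 24.6 ± 20.1 (SD, n = 5). The groups did not overlap, and the mutant with the most Zic1 lay below every other library of the series, the next being axon mutant 2 at 67.0 CPM. Dorsal controls were also the tightest group, with a coefficient of variation of 5.15%. In batch A, Zic1 stood at 256 CPM in the control and averaged 12.6 CPM in the mutants, and in batch B the means were 258 and 42.7 CPM. The fitted log2 fold change (edgeR, batch as a term) was -3.28 ± 1.02 (SE), and it was -2.99 without dorsal mutant 1. In these bulk pieces, fewer cells of a type and less RNA per cell cannot be told apart.

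Zic4 and Zic5, the partners of Zic1 and Zic2 at each locus, were also lower on average in dorsal mutants, but in both cases 1 control library lay within the mutant range. Zic4 stood at 122, 104, 0.236 and 52.0 CPM in dorsal controls and at 0, 16.1, 5.87, 13.7 and 26.2 CPM in dorsal mutants. Control 3 had only 4 counts of Zic4 although its Zic1 level was 267 CPM, and apart from it every control lay above every mutant. This library also stood apart in its marker sums, with 10321 CPM of mesenchyme markers (1160 to 3216 in the other dorsal controls), 39.5 CPM of RPE markers (1617 to 5207) and 24360 CPM of erythroid markers (728 to 2847), and the part of these in its Zic4 level was not tested. The group means of Zic4 were 69.7 ± 55.1 (SD, n = 4) and 12.4 ± 10 (SD, n = 5), and the fitted log2 fold change was -2.47 ± 1.62 (SE), or -2.10 without dorsal mutant 1.

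Zic5, for which a role in neural crest is known, stood at 21.7, 106, 166 and 49.5 CPM in dorsal controls and at 0, 27.8, 8.63, 21.2 and 15.7 CPM in dorsal mutants. Here control 1, the batch A control, was the one that lay within the mutant range, below mutant 2. The means were 85.8 ± 63.9 (SD, n = 4) and 14.7 ± 10.8 (SD, n = 5), and the fitted log2 fold change was -1.92 ± 1.52 (SE), or -1.78 without dorsal mutant 1. The size of both ratios differed between batches. Zic4 was 16.7-fold higher in the control of batch A than in its mutants and 2.62-fold in batch B, while Zic5 was 1.79-fold higher in batch A and 5.80-fold in batch B.

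Zic2, known from the uncrossed RGC axons and from forebrain midline development, was the lowest of the 4. Dorsal controls held 0.873, 0.806, 7.32 and 3.23 CPM of Zic2 and dorsal mutants 0, 0, 1.2, 0.621 and 3.32 CPM. These ranges overlap, the highest mutant lying above 3 of the 4 controls, and the fitted log2 fold change of -0.99 ± 2.39 (SE) was smaller than its error. Summed over the 4 genes, dorsal controls held 373 to 450 CPM and dorsal mutants 0 to 87.4 CPM.

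Dorsal mutant 1 had 0 counts of all 4 genes, which at its depth allows up to 0.275 CPM of each. Without it the mean of the dorsal mutants was 30.8 CPM for Zic1, 15.5 for Zic4, 18.3 for Zic5 and 1.29 for Zic2.

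Across all genes, the number that passed in the dorsal comparison depended on the tool and the filter. Of 16145 genes tested, 2 were called (0.0124%), which took a log2 fold change over 0.58 in size and an adjusted p (Benjamini-Hochberg) under 0.05, and 0 of the 4 Zic genes were among them. DESeq2 called 532 genes and limma voom 41, with 0 Zic genes in either, and edgeR without the count filter called 101, Zic1 among them. With the filter, 864 genes had an unadjusted edgeR p under 0.05, close to the number that threshold gives if no gene differs. In 260 genes (1.61%) every dorsal mutant library lay below every dorsal control library, and Zic1 is 1 of them. The Zic genes were chosen on these levels, so nothing about them is read from any of these counts.

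The ventral stalk showed no such difference for any member. Ventral controls held 131, 216, 187 and 249 CPM of Zic1 and ventral mutants 158, 93.4, 265, 236 and 211 CPM. Both the lowest and the highest of these libraries were mutants, the means were 196 ± 49.8 (SD, n = 4) and 193 ± 68.1 (SD, n = 5), and the fitted log2 fold change was 0.16 ± 0.35 (SE). Ventral controls held 45.6, 192, 65.5 and 76.7 CPM of Zic4 and ventral mutants 134, 64.0, 67.6, 53.2 and 88.8 CPM. All the mutants lay within the range of the controls.

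The values of Zic5 were 30.2, 83.7, 79.5 and 92.0 CPM in the ventral controls and 69.7, 29.1, 28.8, 98.6 and 49.6 CPM in the ventral mutants, again with overlap. Ventral controls held 5.26, 4.88, 7.49 and 1.62 CPM of Zic2 and ventral mutants 1.42, 8.24, 6.89, 4.04 and 9.31 CPM. In the ventral comparison 0 of 16139 genes were called (0%) with edgeR, and DESeq2 and limma voom called 342 and 6. An unadjusted edgeR p under 0.05 was reached by 515 genes, fewer than that threshold gives if no gene differs. In 198 genes (1.23%) the genotypes did not overlap in either direction, 0 of the 4 Zic genes among them.

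In the axon pieces the levels varied widely within both genotypes. Axon controls held 84.0, 198, 274 and 157 CPM of Zic1 and axon mutants 175, 67.0, 90.2, 200.4 and 177 CPM. Zic4 ran from 9.40 to 123 CPM in axon controls and from 1.11 to 171 CPM in axon mutants, and Zic5 from 10.6 to 118 and from 0.171 to 87.7 CPM. Each of these ranges covers most of the other. Zic2 ran from 0.273 to 14.8 CPM in axon controls and from 0 to 6.29 CPM in axon mutants. The fitted log2 fold changes of the 4 genes lay between -0.23 and 0.38 with standard errors of 0.51 to 2.99, beside a median of -0.29 over all genes tested.

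Of 14977 genes, 0 were called (0%) with edgeR in the axon comparison, and DESeq2 and limma voom called 1233 and 45. An unadjusted edgeR p under 0.05 was reached by 531 genes, fewer than that threshold gives if no gene differs. In 192 genes (1.28%) the genotypes did not overlap in either direction, 0 of the Zic genes among them.

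**Figure D2:**
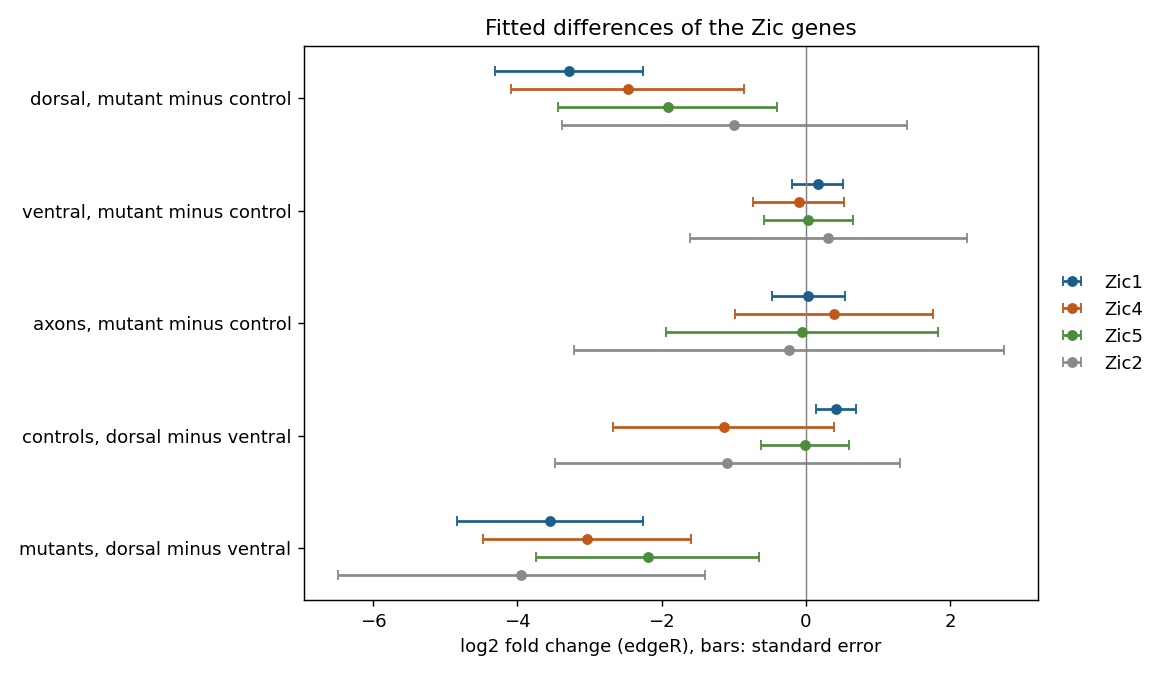
Fitted log2 fold change (edgeR) of each Zic gene in 5 comparisons on the horizontal axis, with bars of 1 standard error. The values of Zic1, Zic4 and Zic5 lie below 0 by more than their error both in dorsal mutants against dorsal controls and in mutants between the dorsal and the ventral piece, and within their error of 0 in the ventral and axon comparisons of genotypes.

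Since each embryo gave 3 pieces, the regions were also set against each other within embryos, taking the number in the labels as the embryo. In control embryos the dorsal piece held somewhat more Zic1 than the ventral piece, in 4 of 4, by 0.43 ± 0.39 (SD, n = 4) on the log2(CPM + 1) scale, with a range from 0.11 to 0.96. Zic5 was higher dorsally in 2 of the 4 control embryos, Zic4 in 1 and Zic2 in 1. For Zic1 the order was the other way round in mutant embryos, while for Zic4 and Zic2 the dorsal piece was the lower in 3 of 4 controls already. All 5 mutant embryos had less Zic1, Zic2, Zic4 and Zic5 in the dorsal than in the ventral piece. The mean difference was -3.66 ± 2.28 (SD, n = 5) for Zic1, -3.19 ± 2.27 for Zic4, -2.32 ± 2.28 for Zic5 and -1.84 ± 0.80 for Zic2 on that scale. Without mutant embryo 1 it was -2.75 ± 1.18 (SD, n = 4) for Zic1, -2.21 ± 0.74 for Zic4, -1.36 ± 0.91 for Zic5 and -1.98 ± 0.85 for Zic2.

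For Zic5 the smallest of these differences, -0.06 in mutant 2, was a difference of 27.8 against 29.1 CPM. The dorsal mutant pieces also held less Zic1 than the axon piece of the same embryo in 5 of 5, but for Zic4 and Zic5 in 3 of 5.

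**Figure D3:**
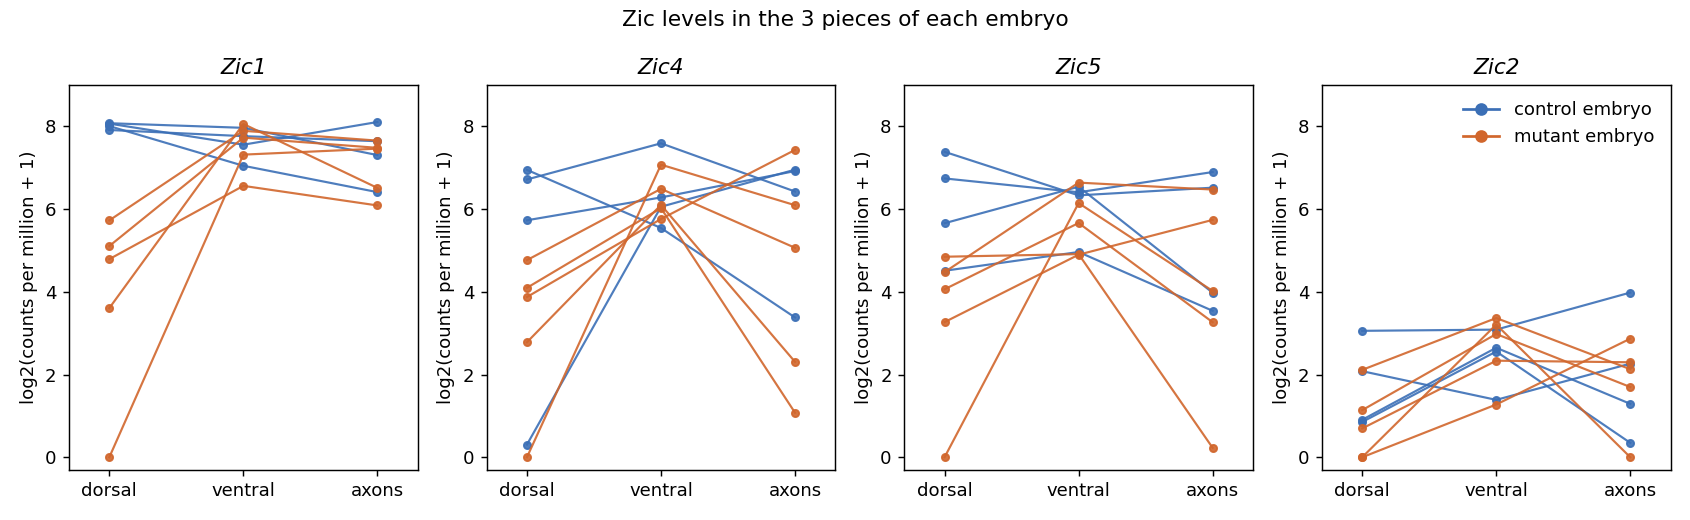
Level of Zic1, Zic4, Zic5 and Zic2 on a log2(CPM + 1) axis in the dorsal, ventral and axon piece, with 1 line per embryo (blue, 4 controls; orange, 5 mutants). The lines of the 5 mutant embryos climb from dorsal to ventral in all 4 panels, while control lines of Zic1 fall slightly.

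Fitted with the embryo as a block, the log2 fold change between the dorsal and the ventral piece of mutants was -3.55 ± 1.29 (SE) for Zic1, -3.04 ± 1.44 for Zic4, -2.19 ± 1.55 for Zic5 and -3.94 ± 2.55 for Zic2. Of 16168 genes, 6 were called (0.0371%), with 0 of the 4 Zic genes among them, while DESeq2 called 1007, Zic1 among them, and limma voom 39. The unadjusted edgeR p lay under 0.05 in 653 genes, fewer than that threshold gives if no gene differs. In 150 genes (0.928%) every dorsal mutant lay below every ventral mutant. These 150 include Zic1, Zic4 and Zic5, while for Zic2 the ranges of 0 to 3.32 and 1.42 to 9.31 CPM overlapped. Without mutant embryo 1 the fold changes were -2.74 for Zic1, -2.27 for Zic4 and -1.42 for Zic5. This comparison uses the same dorsal mutant libraries as the genotype comparison, so the pair are not independent.

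Among controls, the dorsal minus ventral log2 fold changes were 0.42 ± 0.28 (SE) for Zic1, -0.01 ± 0.62 for Zic5, -1.14 ± 1.54 for Zic4 and -1.09 ± 2.39 for Zic2. Here 0 of 16118 genes were called (0%) with edgeR, and DESeq2 and limma voom called 636 and 20. In 224 genes (1.39%) every dorsal library lay below every ventral one, with 0 Zic genes among them. An unadjusted edgeR p under 0.05 was reached by 410 genes, by 625 between dorsal and axon controls and by 418 between ventral and axon controls. Each is fewer than that threshold gives if no gene differs. Between dorsal and axon controls 2 of 15899 genes were called (0.0126%), and between ventral and axon controls 0 of 15839 (0%) with edgeR, with 0 Zic genes called in either. DESeq2 and limma voom called 1062 and 146 in the former and 999 and 48 in the latter. Dorsal minus axon log2 fold changes were 0.45 ± 0.38 (SE) for Zic1, 0.67 ± 0.77 for Zic5, -0.79 ± 2.14 for Zic4 and -0.35 ± 2.20 for Zic2. The median of all genes in that comparison was 0.48 with the scaling used here and 0.58 with RLE scaling, and Zic1 lies at this shift.

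Ordered by mean, Zic1 was highest in dorsal controls (258 CPM), followed by ventral controls (196), ventral mutants (193), axon controls (178), axon mutants (142) and dorsal mutants (24.6). The last step exceeded the SD of both groups and left no overlap. The first step, from dorsal to ventral controls, was also larger than both SDs, but those ranges overlapped, and the ventral and axon groups lay within the SD of their neighbours. The means of Zic4 and Zic5 were lowest in dorsal mutants as well, at 12.4 and 14.7 CPM, next to axon mutants at 55.2 and 32.8 CPM, and these neighbours lay within the SD of the axon mutants. Zic2 was also lowest there, at 1.03 ± 1.38 CPM (SD, n = 5), next to dorsal controls at 3.06 ± 3.06 CPM (SD, n = 4).

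The libraries of a group differ in the cells they hold, and marker lists show which moved beside the Zic genes. Markers of periocular and meningeal mesenchyme, which includes neural crest derivatives, summed to 1160 to 10321 CPM in dorsal controls and to 56.2 to 414 CPM in dorsal mutants. Of the 14 mesenchyme genes tested, 13 had a log2 fold change below 0 and 0 passed the test. In 7 of the 14 every dorsal mutant lay below every dorsal control, beside 1.61% of all genes tested. Twist2 and Alx1 were at 0 in every dorsal control. The collagen gene Col3a1 ranged from 421 to 4263 CPM in dorsal controls and from 0 to 81.5 CPM in dorsal mutants, and Dcn, a matrix proteoglycan gene, from 176 to 1647 and from 11.9 to 58.6 CPM.

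The ventral pieces were read on the same list. Ventral mutants had mesenchyme sums of 59.4 to 181 CPM, with Foxc1, Twist1, Twist2, Tbx18 and Alx1 at 0 in all of them, and held 93.4 to 265 CPM of Zic1. In ventral controls the sums ran from 55.4 to 1316 CPM, the highest in control 3 and at most 176 CPM in the others. Of the 13 mesenchyme genes tested between ventral genotypes, 12 had a log2 fold change below 0, with 0 past the test. The median over the list was -4.90 ventrally and -3.11 dorsally. In 0 of the 13 did the ventral genotypes separate, beside 1.23% of all genes tested. Ventral and dorsal mutants also differed in their stalk progenitor sums, at 1570 to 2731 and 589 to 984 CPM. The part of mesenchyme in the dorsal difference was not tested.

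Markers of the optic stalk and of astrocyte progenitors were lower in dorsal mutants as well, with sums of 1518 to 2484 CPM in controls and 589 to 984 CPM in mutants. Of these 11 genes, 9 had a log2 fold change below 0 and 0 passed the test, beside medians of -1.2 over the list and -0.04 over all genes. In 5 of the 11 every dorsal mutant lay below every dorsal control, beside 1.61% of all genes tested. Slc1a3, a glial glutamate transporter, averaged 389 ± 147 CPM in the 4 dorsal controls and 116 ± 35.1 CPM (SD) in the 5 dorsal mutants, and Nfib, a factor of glial differentiation, 604 ± 450 and 184 ± 62.5 CPM. Fabp7, a fatty acid binding protein gene of radial glia with the highest mean of the list over all libraries, averaged 167 ± 46.7 and 101 ± 72.7 CPM. In ventral mutants the sum was 1570 to 2731 CPM, against 2273 to 2536 CPM in ventral controls.

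RPE markers went the other way in the dorsal pieces, with 39.5 to 5207 CPM in controls and 3522 to 13319 CPM in mutants. All 9 RPE genes tested had a log2 fold change above 0, with 0 past the test. In 3 of the 9 every dorsal mutant lay above every dorsal control, and the share of all genes in that direction was not counted. Within mutants, 2 RPE genes passed the test as higher in the dorsal than in the ventral piece. Dct, a melanin synthesis gene, had a log2 fold change of 4.19 ± 0.30 (SE; edgeR adjusted p = 0.0140) and Rlbp1, a retinoid-binding protein gene of the visual cycle, of 2.34 ± 0.23 (SE; edgeR adjusted p = 0.0351). Pmel, a melanosome matrix gene, ranged from 37.6 to 4433 CPM in dorsal controls and from 2032 to 8752 CPM in dorsal mutants. Ventral RPE sums ran from 348 to 1405 CPM in controls and from 723 to 4246 CPM in mutants. Of the 8 RPE genes tested ventrally, 7 had a log2 fold change above 0. In the axon pieces the sums ran from 81.1 to 710 and from 375 to 1283 CPM, with 6 of 8 above 0. In either comparison 0 passed the test.

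Retinal progenitor markers summed to 165 to 396 CPM in dorsal controls and 425 to 2116 CPM in dorsal mutants, with 6 of 7 tested genes above 0 and 0 past the test. In 2 of the 7, Pax6 among them, every dorsal mutant lay above every dorsal control. Pax6, the eye field regulator, averaged 61.5 ± 30.5 (SD, n = 4) and 303 ± 71.8 CPM (SD, n = 5). Sfrp2 ranged from 17.2 to 68.0 and from 18.9 to 211 CPM and Fgf15 from 0 to 5.32 and from 0 to 1046 CPM, and 1 library held most of the mutant sum of each. Endothelial markers summed to 220 to 415 and 43.2 to 453 CPM, with 8 of 8 tested genes below 0 and 0 past the test, and Kdr, the VEGF receptor, averaged 101 and 64.1 CPM. Erythroid markers summed to 728 to 24360 and 176 to 7270 CPM, with 7 of 8 below 0 and 0 past the test, led by the globin Hbb-y. Neuronal and RGC markers summed to 25.0 to 1075 and 74.0 to 933 CPM in these groups, with Pou4f2 at 0 in both, and 8 of 11 tested were above 0 with 0 past the test. The part of each of these in the Zic levels was not tested.

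**Figure D4:**
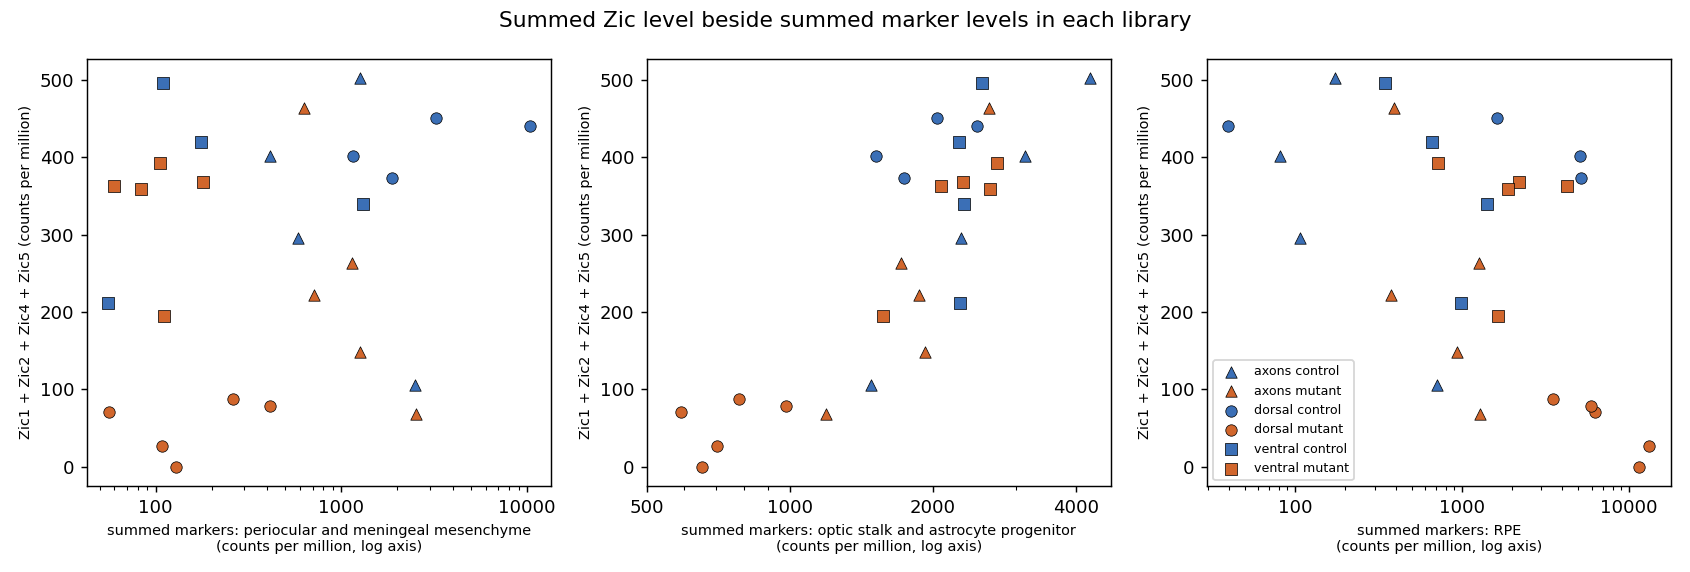
Summed level of Zic1, Zic2, Zic4 and Zic5 in CPM (vertical, linear) against the summed level of 3 marker lists in CPM (horizontal, log axis), with 1 point per library, coloured by genotype and shaped by region. Dorsal mutants hold 0 to 87.4 for Zic, with stalk progenitor sums of 589 to 984 and mesenchyme sums of 56.2 to 414. Ventral mutants hold 195 to 392 for Zic, with stalk progenitor sums of 1570 to 2731 and mesenchyme sums of 59.4 to 181.

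Zic proteins bind DNA sites like those of Gli proteins and are known to interact with them, so the Gli relatives and the hedgehog pathway were read next. Of 18 genes on the list, 15 were tested in the dorsal comparison, with 8 above and 7 below 0 and 0 past the test. Gli3, whose product acts mainly as a repressor, averaged 97.7 and 87.2 CPM in dorsal controls and mutants, Ptch1, the hedgehog receptor and a target of the pathway, 107 and 169 CPM, and Smo, the signal transducer, 93.0 and 96.9 CPM. The ligand gene Shh was at 0 in all dorsal, ventral and axon controls, and Dhh was at 0 in the dorsal groups. In the axon pieces Gli3 ranged from 77.2 to 197 CPM in controls and from 0.0572 to 58.2 CPM in mutants, without overlap, yet its log2 fold change of -2.36 did not pass the test (edgeR adjusted p = 0.880). Over the ventral and axon comparisons of genotypes, 11 of 16 and 5 of 15 tested genes of the list were above 0, with 0 past the test in either.

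Of 5 known partners of Zic proteins, 4 were tested dorsally and 0 passed. Tcf7l2, a Wnt pathway factor, averaged 202 and 177 CPM in dorsal controls and mutants. Gli2 ranged from 0 to 22.7 and from 11.5 to 91.7 CPM, and Mdfi, at 0 to 0.269 CPM in dorsal controls and 0 in dorsal mutants, did not pass the filter in either. Of 8 genes tied to Zic factors in other tissues, 3 could be tested and 0 passed. Apoe, a lipid carrier gene, averaged 1458 and 1940 CPM in the dorsal groups. Ephb1, a guidance receptor of uncrossed RGC axons, ranged from 0 to 33.5 CPM in dorsal controls and from 0 to 90.4 CPM in dorsal mutants, with a log2 fold change of -1.58 ± 4.93 (SE), and Pax3, a neural crest gene, was at 0 in dorsal controls and at 0 to 1.56 CPM in dorsal mutants. Of 10 genes of axon laterality, 8 were tested in each region and 0 passed for genotype. Sox11 and Sox4, factors of neuronal differentiation, ranged from 113 to 1270 and 163 to 476 CPM in dorsal controls and from 333 to 909 and 152 to 345 CPM in dorsal mutants. Nrcam, an adhesion gene of crossed axons, ranged from 2.11 to 101 and from 44.2 to 182 CPM in the same groups, and all 3 overlapped.

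Neighbouring genes were read at both loci. Within 250 kb of Zic1 and Zic4 the annotation lists 10 other genes, of which 6 passed the filter, and within 250 kb of Zic2 and Zic5 it lists 12, of which 6 passed. Around Zic1 and Zic4, Gm29478, A730094K22Rik, Gm37040, Gm37477, Gm37812 and Gm37457, none of them annotated as protein coding, each had a dorsal log2 fold change below 0, and 0 passed the test. A730094K22Rik stood at 9.98 to 42.7 CPM in dorsal controls and 0 to 13.5 CPM in dorsal mutants. The log2 fold change was -1.75 ± 2.02 (SE) for A730094K22Rik, -1.08 ± 2.97 for Gm37040, -2.15 ± 3.49 for Gm37812 and -0.96 ± 5.04 for Gm37457, each smaller than its error. It was -3.51 ± 2.25 (SE) for Gm29478 and -5.37 ± 3.21 for Gm37477, each larger than its error. Gm29478 averaged 0.199 CPM in dorsal controls and 0 in dorsal mutants, and Gm37477 1.39 and 0.179 CPM. Gm37477 shares exonic bases with Zic4, as given above. Levels at this locus were low for all but the Zic genes, and no common direction is read from these signs.

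At the other locus 5 of the 6 were below 0 and 0 passed. The widely expressed metabolic genes Clybl and Pcca averaged 70.8 and 12.5 CPM in dorsal controls and 65.3 and 21.3 CPM in dorsal mutants, with log2 fold changes of -0.12 ± 0.80 and 0.70 ± 2.01 (SE). Gm5089, in its antisense transcript entry, stood at 42.7 to 75.8 CPM in dorsal controls and at 0 to 25.0 CPM in dorsal mutants, without overlap, with a log2 fold change of -2.35 ± 1.69 (SE; edgeR adjusted p = 0.998). A second entry with the same symbol averaged 11.1 and 0.583 CPM, with a log2 fold change of -4.20 ± 2.60 (SE). Gm25464 averaged 1.36 CPM in dorsal controls and 0 in dorsal mutants (-6.84 ± 2.65, SE). For 2610035F20Rik the fitted value was -6.67 ± 7.59 (SE), although its mean was higher in dorsal mutants, at 3.86 against 2.57 CPM.

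Over all 27 libraries the members went up and down together to a moderate degree. Pearson's r of log2(CPM + 1) was 0.71 between Zic1 and Zic5, 0.65 between Zic1 and Zic4, 0.56 between Zic4 and Zic5 and 0.40 between Zic2 and Zic4. With the group means removed, r was 0.67 between Zic1 and Zic5, 0.58 between Zic1 and Zic4, 0.41 between Zic4 and Zic5 and 0.15 between Zic2 and Zic4. Without dorsal mutant 1 the values over libraries were 0.55, 0.50, 0.41 and 0.29 and those within groups 0.53, 0.51, 0.28 and 0.086, in the same order. The points share embryos, batches and depth. The highest r, between Zic1 and Zic5, was of genes on different chromosomes, and the next was of the neighbours Zic1 and Zic4. The other neighbours, Zic2 and Zic5, had an r of 0.45 over the 27 libraries and 0.30 within groups. Zic1 and Zic2, on different chromosomes, had 0.53 and 0.31.

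The genes whose pattern was most like that of Zic1 over the 27 libraries were Ntn1 (r of 0.86), the guidance gene netrin 1, Anxa2 (0.86), an annexin, Ptn (0.86), the growth factor pleiotrophin, Ednrb (0.83), an endothelin receptor, and Lix1 (0.81). Ntn1 averaged 296 CPM in dorsal controls, 58.9 in dorsal mutants, 275 in ventral controls and 363 in ventral mutants. Ptn averaged 1791, 448, 1996 and 2441 CPM in the same order. Both were thus low in the same group as Zic1, and the list depended on the measure, since 0 of the 5 were among the top 5 by Spearman's rho. Without dorsal mutant 1, r fell to 0.69 for Ntn1, 0.63 for Anxa2, 0.80 for Ptn, 0.65 for Ednrb and 0.55 for Lix1.

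Zic4 was most like Fam83d (0.85), Sema6d (0.81), a semaphorin, Ripor2 (0.80), Arl4a (0.77) and Sox2 (0.76), the neural progenitor factor. Zic5 was most like Krcc1 (0.79), Ednrb (0.78), Gpx8 (0.77), Rab14 (0.73) and Itih5 (0.72). Zic2 had weaker matches, namely Rtl8b (0.68), Ifitm1 (0.66), Vim (0.65), Gm6997 (0.63) and Aqp11 (0.60). By Spearman's rho 2 of the 5 for Zic4, 3 for Zic5 and 2 for Zic2 stayed in the top 5. Over all 16330 genes the 99th percentile of r was 0.49 for Zic1 and 0.43 for Zic2. Of the 20 entries for the 4 genes, with Ednrb listed for both Zic1 and Zic5, 19 had a log2 fold change below 0 in the dorsal comparison of genotypes with 0 past the test, which follows in part from their choice on the same libraries.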

How the data were processed

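The authors deposited unscaled counts of reads for each gene in 27 libraries. Seq2Science, with its defaults, mapped the single-end reads with STAR (mm10), and HTSeq gave the counts. Tool versions, annotation and strand setting are not given in the sources used here. Symbols and positions came from GENCODE M21, which matched 55141 of 55487 identifiers. The 346 others hold 0.0148% of the counts. The study's E12 tissue was not analysed here.

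Genes that exceeded 10 counts in 3 or more libraries were tested with edgeR 4.0.16 in R 4.3.3 (quasi-likelihood F-test, two-sided, TMM scaling). Calls required a log2 fold change over 0.58 in size and an adjusted p (Benjamini-Hochberg) under 0.05. Genotypes were compared within a region with batch as a term, and regions within a genotype with the embryo as a block. Same-numbered pieces of a genotype were taken as 1 embryo, because each embryo gave 3 pieces in the study. Their deviations from the group means correlated by -0.02 to 0.11, and those of same-numbered controls and mutants by -0.05 to 0.03. These ranges overlap and lie near 0, so they do not settle the pairing, which the labels do not state directly. Standard errors were derived from the F statistic. DESeq2 1.42.0 and limma 3.58.1 served as alternatives, and the steps were tested on simulated data. The labels give separate samples, which were taken as embryos as described above. On that reading, p-values between genotypes measure the spread between embryos. Those between regions measure the spread between pieces that is left after the embryo block.

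The members, the lists of genes and the naming rule were chosen with earlier results of these data known. Named genes are the members, Smarcc1, called genes of the lists and the 3 with the highest mean CPM per list, tested genes within 250 kb of a member, and the 5 most correlated genes of each member. Of this rule 1 gene, and of the lists 1 marker of mesenchyme, are not reported here. Nefm and Sncg were named as such markers of RGCs, and Tubb3 after its values were seen. The comparison of dorsal with ventral mutants, the counts of groups without overlap, and within-embryo differences and correlations without dorsal mutant 1 were added after seeing the data. Correlations used log2(CPM + 1), a pseudocount of 1.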

Additional observations from a re-analysis of the deposited data

Results flagged for a closer look

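Of 24 groups of 4 or 5 libraries (4 members in 6 groups), 2 held a library that stood far from the rest, and chance alone gives about 1 in 20. In axon controls, control 1 had 9.40 CPM of Zic4 while the others had 84.8 to 123 CPM. In ventral controls, control 1 had 30.2 CPM of Zic5 while the others had 79.5 to 92.0 CPM. Control 1 is the control embryo of batch A, so batch and embryo cannot be told apart here. Its ventral and axon pieces were also the lowest controls of Zic1, at 131 and 84.0 CPM, and its dorsal piece the lowest dorsal control of Zic5, at 21.7 CPM, whereas its dorsal piece held 256 CPM of Zic1 and 122 CPM of Zic4, the latter the highest of the dorsal controls.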

How the results depend on the processing

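The 4 members kept a log2 fold change below 0 in dorsal mutants against controls in all 16 alternatives each, from -4.38 to -2.57 for Zic1, -2.95 to -1.34 for Zic4, -3.50 to -1.53 for Zic5 and -4.08 to -0.48 for Zic2. The values farthest from 0 came with the replicate block for Zic1, Zic5 and Zic2, and those nearest to 0 without control 1 for Zic1 and Zic4 and without control 3 for Zic5 and Zic2. In mutants, dorsal against ventral, they did so in all 10 alternatives. In the ventral and axon comparisons of genotypes signs varied, from -0.11 to 0.26 for Zic1 ventrally and from -0.45 to 0.21 in axons. No Zic member was called in any setting except 1 (Zic1) dorsally without the count filter and 1 (Zic1) with DESeq2 in mutants between dorsal and ventral. The numbers of genes called over the whole table were far less stable. With DESeq2 they were 532 (dorsal genotypes), 342 (ventral), 1233 (axons), 636 (controls, dorsal and ventral), 1062 (controls, dorsal and axons), 999 (controls, ventral and axons) and 1007 (mutants). With limma voom they were 41, 6, 45, 20, 146, 48 and 39, and without the count filter 101, 8, 10, 2, 10, 5 and 12, in the same order. In the dorsal comparison, 8 genes were called without the batch term, 0 with the replicate block and 0 in batch B alone. The replicate block moved no count of calls in the ventral and axon comparisons, where it stayed at 0. Without the embryo as a replicate block, 11 were called between dorsal and axon controls, 5 between ventral and axon controls and 0 in mutants, and RLE scaling gave 1 between dorsal and axon controls. Leaving out 1 library or embryo at a time gave 0 to 2 genes in the dorsal comparison of genotypes, 0 to 1 between dorsal and axon controls, 0 to 2 in mutants and 0 to 0 in the other 4 comparisons, and 0 to 0 Zic members in all 7. Of 156 group means of the members recomputed under other scalings or without 1 library, 154 moved by less than 1 SD. The 2 others were Zic1 in dorsal controls, at 242 CPM with TMM library sizes and 272 CPM without mitochondrial counts. The cause of these differences was not tested. At 0 to 14.8 CPM, the levels of Zic2 rest on few reads.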
